A study of Homo sapiens with 12 samples.

Results

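RNA recovered with an anti-FLAG antibody was compared with RNA recovered with control IgG in HK2 cells kept in medium without IL-17. The comparison was defined by the labels alone and holds 6 of the 12 libraries of the series: 3 FLAG medium and 3 IgG medium libraries. The other 6, FLAG and IgG libraries from cells given 200 ng/mL IL-17 for 3 h, are used beside them. HK2 is an established, immortalised human kidney epithelial line of proximal tubule origin. Per the labels, all cells, those behind the IgG libraries included, received 10 µg of a plasmid for FLAG-tagged human Arid5a and were then held for 3 h in medium. FLAG and IgG libraries thus differed in the antibody, a mouse anti-FLAG or a mouse IgG1, and not in the plasmid. The labels do not tie the replicates to separate cultures. A p-value here therefore speaks only of the spread between these libraries, which may be technical.

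ARID5A belongs to the AT-rich interaction domain family, whose members bind DNA. It also binds RNA and is known for stabilising inflammatory mRNAs such as that of IL6, opposing the endonuclease Regnase-1. RNA immunoprecipitation recovers transcripts that travel with a tagged protein, and the IgG library shows what the beads retain with a control antibody. The deposited identifiers were paired with no gene symbol in the sources used here (0 of 60708 features matched the reference table). No identifier was therefore assigned to a gene, the transfected one included, and a feature described here by its identifier may be any of them. Gene families, RNA classes and kidney markers were not analysed here, and features are described by identifier, level, apparent length and behaviour in each library.

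The 6 libraries differed widely in depth and content. FLAG medium replicates 1, 2 and 3 held 2402395, 7563477 and 6315719 estimated counts, and IgG medium replicates 1, 2 and 3 held 746911, 6118339 and 3803261. After each library was thinned to 740000 counts, the FLAG libraries held 25425, 21422 and 18084 features with a count and the IgG libraries 10592, 25921 and 13008. IgG medium replicate 1 was the poorest of the 6, and its 100 most abundant features took 69.9% of its counts, against 27.3% to 43.0% in the others. IgG medium replicate 2 and FLAG medium replicate 1 were the richest. In those libraries 1 feature, ENSG00000196843.17 (picked with its values in view), made up 16.2% and 11.9% of the total, against 0.497% to 2.48% in the other 4. Its log2 fold change, FLAG over IgG, was -0.76 ± 1.03 (SE, edgeR adjusted p = 1).

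**Figure D1:**
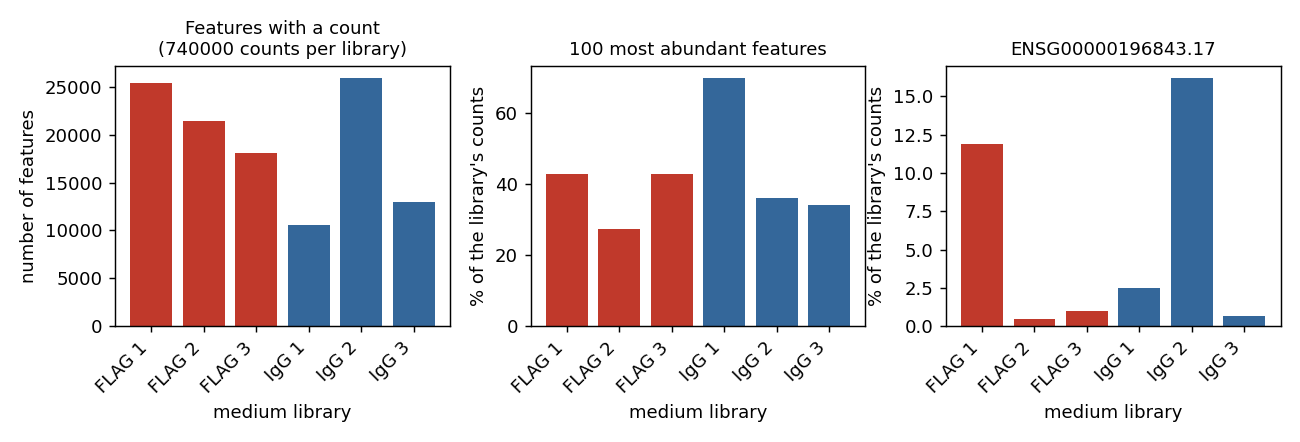
Each bar is 1 medium library (red FLAG, blue IgG): features with a count after thinning to 740000 counts, percent of counts in the 100 most abundant features, and percent of counts in ENSG00000196843.17. FLAG replicate 1 and IgG replicate 2 are high in the left and right panels, and IgG replicate 1 is low on the left at 10592 features and high in the middle at 69.9%.

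In none of 10 such library measures did the antibodies differ beyond the spread between libraries. Features with a count at equal depth averaged 21640 ± 3676 (SD, n = 3) in FLAG and 16510 ± 8242 (SD, n = 3) in IgG (two-sided, exact permutation p = 0.4, and 0.857 when adjusted by Benjamini and Hochberg over the 10 measures). With 3 libraries against 3 this test cannot go below 0.1. Counts that were not whole numbers, meaning that reads were divided among features, made up 35.4%, 37.4% and 45.6% of the FLAG libraries and 62.9%, 27.7% and 31.4% of the IgG libraries. Here IgG replicate 1 lay above and the other 2 IgG libraries below every FLAG library.

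Apparent transcript length, the ratio of estimated count to TPM (a level scaled for length and library), gave overlapping groups too. The shortest 10% of the 23132 tested features with such a length took 12.3%, 14.0% and 17.5% of counts in FLAG and 27.6%, 10.9% and 12.8% in IgG. The mean share was 14.6% ± 2.63 (SD, n = 3) in FLAG and 17.1% ± 9.14 (SD, n = 3) in IgG (exact two-sided permutation p = 0.9, adjusted 1). The sign of this difference was not stable: it was -2.49 percentage points over all 6 libraries, 2.76 without IgG replicate 1, -5.61 without IgG replicate 2, and 0.956 on shares of TPM. The longest 10% took 10.5%, 13.3% and 10.3% in FLAG and 6.07%, 11.1% and 13.6% in IgG, overlapping in the same way.

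Over whole profiles, libraries of different antibodies correlated on average no less than libraries of the same antibody. At equal depth, Pearson correlations of log2(count + 1) across the 24040 tested features averaged 0.680 over the 6 pairs of libraries with the same antibody and 0.699 over the 9 pairs with different antibodies. The difference of these means was -0.0186 (exact one-sided permutation p = 0.8 over the 10 ways to divide the 6 libraries, with a smallest possible p of 0.1). The most alike pair of all was FLAG replicate 3 with IgG replicate 3 at 0.855, followed by FLAG replicate 2 with IgG replicate 3 at 0.843. The most alike pair within an antibody was FLAG replicates 2 and 3 at 0.833. FLAG replicate 1 correlated at 0.620 and 0.613 with the other FLAG libraries and at 0.636 with IgG replicate 2, the other library rich in ENSG00000196843.17. IgG replicate 2 itself was closer to FLAG replicates 2 and 3 (0.762 and 0.750) and to IgG replicate 3 (0.740) than to FLAG replicate 1. These correlations are across features, which are not independent replicates.

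**Figure D2:**
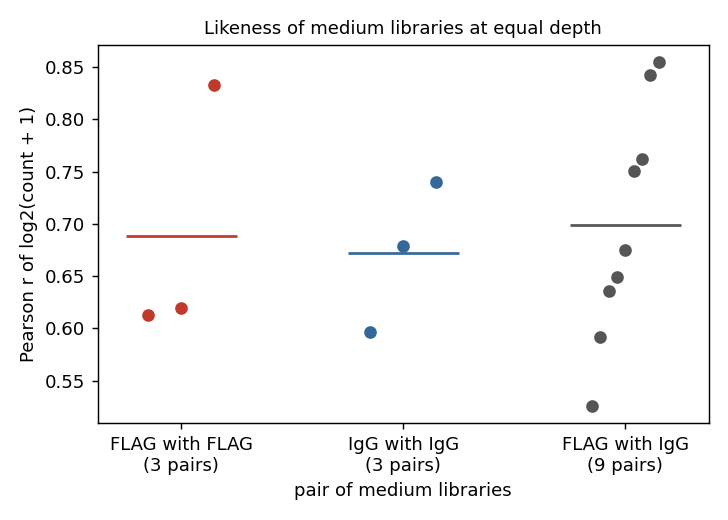
Each point is the Pearson correlation of log2(count + 1) between a pair of medium libraries thinned to 740000 counts, over 24040 features, and lines are means. The 9 pairs of a FLAG with an IgG library run from 0.526 to 0.855 and span the range of the pairs within an antibody, 0.596 to 0.833.

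The most abundant features were also shared. The 10 most abundant features of each of the 6 libraries made up 16 distinct features, and 4 of these were in the top 10 of all 6 libraries. Log2 fold changes of those 4, FLAG over IgG, ran from -1.34 to -0.23, and the smallest edgeR adjusted p among them was 0.946.

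The question of the experiment, which transcripts FLAG recovered above IgG, was put to each of 24040 features with edgeR's quasi-likelihood test over all 12 libraries. At a Benjamini-Hochberg adjusted p under 0.05, 0 features (0%) were called higher and 0 (0%) lower in FLAG, and the smallest adjusted p was 0.322. The procedure was also run on simulated data in which every feature had the same spread, near the common dispersion of these libraries. It recovered none of the changes put in. The simulation did not copy how spread differs between features, so it does not say what was recoverable among features of smaller spread. The 0 calls do not show that no transcript was enriched. Before adjustment, 1002 of the 24040 features (4.17%) had a p under 0.05 with FLAG above IgG, and 576 (2.40%) with FLAG below. DESeq2 called 93 (0.495% of the 18793 features it gave an adjusted p) higher and 47 (0.250%) lower. The median log2 fold change over all features was 0.20, and it lay between 0.11 and 0.37 with other scaling factors, so folds near these values do not differ from the whole.

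**Figure D3:**
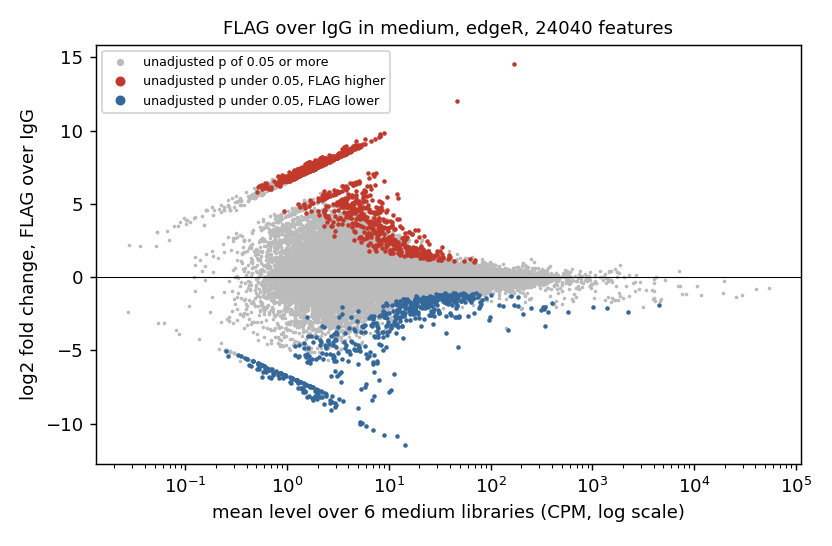
Each point is 1 of 24040 features: mean level over the 6 medium libraries in CPM (counts scaled to the library total, log scale) against the edgeR log2 fold change, FLAG over IgG. Features with an unadjusted p under 0.05 (1002 higher in red, 576 lower in blue) lie at the edges of the cloud, and the diagonal bands hold features with no count in 1 group, whose fitted fold is no measured size. None passed an adjusted p of 0.05.

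Features with a low unadjusted p were often carried by a single library, as were features at large. Of the 1002 higher ones, 257 (25.7%) had over 80% of their summed FLAG CPM in 1 library, against 23.8% of all tested features with a FLAG value, and 616 were highest in FLAG replicate 1, as were 11213 of all 24040. Of the 576 lower ones, 218 (37.9%) had over 80% in 1 IgG library, against 46.6% of all tested features with an IgG value, and 312 were highest in IgG replicate 1, the shallowest, as were 3137 of all 24040 among the IgG libraries. Full separation of FLAG from IgG libraries was found for 490 (48.9%) of the 1002 and 113 (19.6%) of the 576. Among all tested features the shares were 4.87% above and 0.749% below. A low p and full separation rest on the same medium values, so lists chosen by p are rich in separated features by construction. A single library held over 80% for 13 of the 93 features that DESeq2 called higher and 15 of the 47 it called lower. Of the 93, 55 were highest in FLAG replicate 1 and 84 (90.3%) did not overlap. Of its 47 lower calls 28 were highest in IgG replicate 1 and 25 (53.2%) did not overlap. The choice by p favours separated features here too.

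Counted without any model, full separation of the groups ran mostly one way. Every FLAG library lay above every IgG library for 1171 features (4.87%), and below for 180 (0.749%). Features above had a median level of 9.36 CPM in FLAG and 0.872 in IgG, and features below 9.01 in FLAG and 23.8 in IgG. A feature at 0 in IgG replicate 1 cannot lie fully below, and 14079 tested features were at 0 there. Of those 14079, 894 (6.35%) lay above. Of the 9961 with a count in that library, 277 (2.78%) lay above and 180 (1.81%) below. The imbalance over all tested features is therefore partly set by that library. After thinning to equal depth 909 lay above and 165 below, and with TMM-scaled CPM 1220 and 268. Without IgG replicate 1 the numbers were 1394 above and 1234 below. Without IgG replicate 2 they were 5975 and 416, and without both IgG replicate 2 and FLAG replicate 1 they were 8028 and 654. On TPM in place of CPM, 689 lay above and 140 below. A comparison of fewer libraries separates more features by construction.

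Features seen with 1 antibody only were counted over all 60708 deposited features, tested or not. A count in every FLAG and in no IgG medium library was found for 364 of them, and the reverse for 4. The reverse needs a count in IgG replicate 1, where 10609 features had one, against 14419 to 31714 in the other medium libraries. At equal depth the numbers of FLAG-only and IgG-only features were 300 and 18. They were 412 and 99 without IgG replicate 1, 461 and 118 without IgG replicate 3, and 4048 and 9 without IgG replicate 2. Most of the 364 were low, with a median of 12.5 counts per FLAG library. In the IgG IL-17 libraries 357 of the 364 (98.1%) had a count in at least 1, and 145 (39.8%) in all 3, against 99.9% and 82.5% of all tested features. The tested features had passed a count filter in which the IgG IL-17 libraries took part, and the 364 had not been filtered. These shares are therefore not like for like. Those libraries, with 5365495, 10336247 and 15837845 counts, were deeper than most IgG medium libraries.

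Low and high features differed in where their folds lay, but not in a stable manner. Below the median of mean levels the median log2 fold change was 0.62, and among the 10% of features with the highest levels it was -0.10. The gap of 0.72 between them turned to -0.35 without FLAG replicate 1, was 0.020 without IgG replicate 3 and 6.45 without IgG replicate 2. By limma on log2(TPM + 1) it was -0.071. At equal depth the medians were 0.16 and -0.0096, but only over those features of each class among the 9930 that passed the filter after thinning. They are therefore not like for like with the medians over all 24040. Across 10 classes of apparent length, each of equal size, the median ran only from 0.15 to 0.23. The share with an unadjusted p under 0.05 fell from 5.92% higher and 4.58% lower in the shortest class to 2.07% and 1.77% in the longest, where the median level was 16.5 CPM against 3.80 in the shortest. Features with divided reads in some medium library (6000) had a median of 0.12, and those with whole counts throughout (18040) a median of 0.24.

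The IL-17 libraries are separate libraries, but the medium tests drew their filter and dispersion from all 12 libraries, so features listed by edgeR or DESeq2 are not independent of them. With IL-17, every FLAG library lay above every IgG library for 860 features (3.58%) and below for 2786 (11.6%), the opposite balance to medium. Of the 1171 features fully above in medium, 4.01% were fully above and 10.6% fully below with IL-17, close to those shares of all tested features. Their median CPM with IL-17 was 2.59 in FLAG and 4.49 in IgG. Of the 180 fully below in medium, 3 were above and 13 below with IL-17. Of the 93 features that DESeq2 called higher, 3 were fully above and 15 fully below with IL-17. Tested as an interaction, the difference between the enrichments with IL-17 and in medium gave 0 calls in either direction by edgeR (smallest adjusted p = 0.373). Before adjustment 258 features had a p under 0.05 with a rise and 1509 with a fall, while DESeq2 called 12 higher and 96 lower.

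The 2 features per direction named next had the smallest unadjusted p among those without overlap and with at least 5 CPM in the higher group, a rule that 349 higher and 105 lower features met. None passed the adjusted threshold, and the rule used the medium values, so these values are a description.

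ENSG00000207389.1 had 11.98, 3.28 and 1016 CPM in FLAG replicates 1, 2 and 3 and a rounded count of 0 in each IgG medium library. One FLAG library was far above the other 2, and the groups did not overlap. By group means it was at least 195-fold higher in FLAG against a floor of 3 counts in each IgG library, and at least 4.32-fold higher without FLAG replicate 3 (edgeR adjusted p = 0.322). The 3.28 CPM of FLAG replicate 2 lies under the floor of IgG replicate 1, 4.02 CPM. Its counts of 28.78, 24.79 and 6419.26 in FLAG replicates 1, 2 and 3 were not whole. Reads were thus divided with other features, and the part of that division in the fold was not tested. With IL-17 it was abundant with both antibodies, at 542, 3638 and 1766 CPM in FLAG and 288, 2347 and 833 in IgG, which overlapped (log2 fold change 0.95 ± 1.21 SE, edgeR adjusted p = 0.924).

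ENSG00000077063.11 had 27.9, 16.0 and 10.1 CPM in FLAG, from 67, 121 and 64 counts, and 0, 0.327 and 0 in IgG. All FLAG libraries carried it, and the IgG libraries together held 2 counts. Pooled over each group and scaled to library totals, FLAG over IgG was 82.6 (exact binomial 95% limits 22.6 and 686, for counting error alone; edgeR adjusted p = 0.496). With IL-17 the groups overlapped, at 8.75, 6.01 and 4.48 CPM in FLAG and 13.4, 6.97 and 6.76 in IgG. The difference between the enrichment in medium and with IL-17 had an edgeR adjusted p of 0.664.

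ENSG00000267303.1 was the mirror case, with 0 counts in every FLAG medium library and 25.9, 13.5 and 32.5 CPM in IgG. By group means it was at least 33.9-fold lower in FLAG against the floor of 3 counts in each FLAG library (edgeR adjusted p = 0.686). Its IgG counts of 19.34, 82.8 and 123.63 were not whole. With IL-17 it was counted in 1 of 6 libraries, FLAG IL-17 replicate 2, at 7.20 CPM.

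ENSG00000270882.2 had the most even values of the 4, at 2.23, 5.08 and 5.70 CPM in FLAG and 16.1, 20.3 and 23.5 in IgG. The means were 4.34 ± 1.85 CPM (SD, n = 3) and 19.9 ± 3.72 CPM (SD, n = 3), with a log2 fold change of -2.42 ± 0.61 (SE, edgeR adjusted p = 0.686). With IL-17 the feature lay far higher with both antibodies, at 140, 186 and 160 CPM in FLAG and 101, 156 and 90.3 in IgG, and the groups overlapped. The change of enrichment was 3.16 ± 0.81 on the log2 scale (SE, edgeR adjusted p = 0.664).

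**Figure D4:**
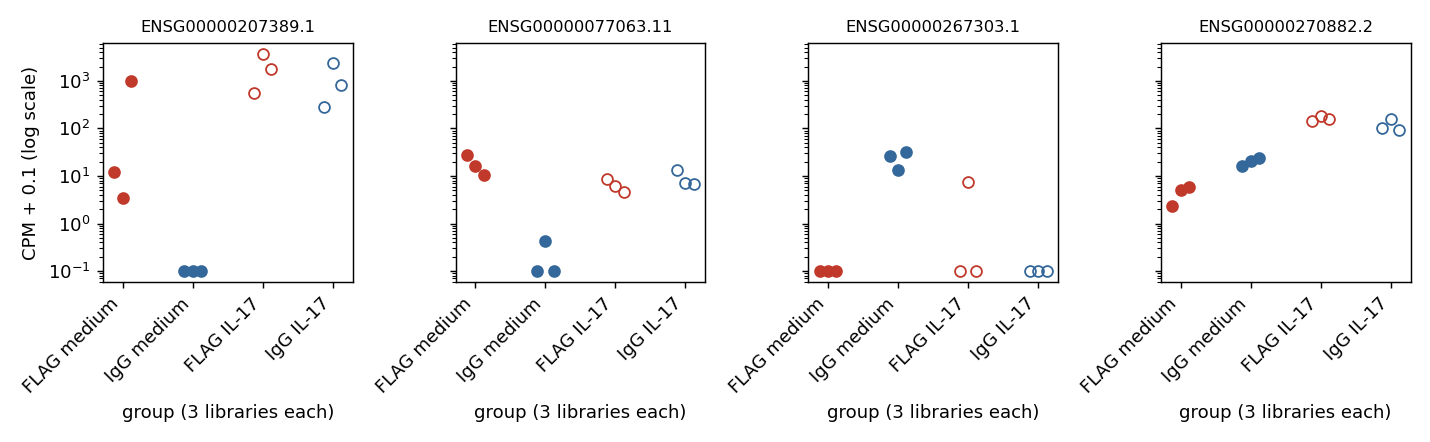
Each point is 1 library: CPM + 0.1 on a log scale for the 4 features by group (red FLAG, blue IgG, filled medium, open IL-17, 3 libraries each). In medium the FLAG and IgG points do not overlap in any panel, which the choice of features fixed. With IL-17 they overlap for ENSG00000207389.1, ENSG00000077063.11 and ENSG00000270882.2, and ENSG00000267303.1 is counted in 1 library.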

How the data were processed

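Estimated counts per Ensembl feature were deposited by the authors, with a second table named for FPKM; all its columns share 1 sum, and it was treated as deposited TPM. The submitters' processing notes name R 4.2.0, DESeq2 1.36.0, the aligner STAR 2.7.9, the quantifier RSEM 1.3.1, and GRCh38 and hg38, without saying what each was used for. Estimated counts were rounded and tested with edgeR 4.0.16 in R 4.3.3 (4 groups of 3 libraries, filterByExpr with a minimum count of 10, TMM factors, quasi-likelihood test, Benjamini-Hochberg adjustment over 24040 features), a procedure tested on simulated data. Simulated with the same spread for every feature, near the common dispersion of these libraries, it recovered none of the changes put in. With a much smaller spread for every feature it recovered most. The common dispersion was 0.953. Alternatives were DESeq2 1.42.0, and limma 3.58.1 with a pseudocount of 1 or 0.1 on TPM before log2. CPM used library totals, without TMM factors. Apparent length needed at least 20 counts and 0.2 TPM, and counts over 0.005 from a whole number were called not whole. A feature at 0 could by counting error alone have up to 3 counts, which is 4.02 CPM in the shallowest medium library and 0.397 in the deepest. The planned gene lists, and fits without the transfected gene or short RNA classes, were not run, since identifiers were not paired with symbols. The naming rule was applied to identifiers: the 2 smallest unadjusted p per direction without overlap and with a mean of at least 5 CPM. Members, lists and rules were chosen with earlier results of these data known.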

Additional observations from a re-analysis of the deposited data

How the results depend on the processing

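Each pair of numbers gives features called higher, then lower, in FLAG, by edgeR where no other tool stands. The cause of these moves was not tested. Thinning, full separation, features seen with 1 antibody and the gap between level classes were chosen after seeing the data. The medium comparison (0 and 0) became 93 and 47 by DESeq2, 9 and 39 unfiltered, and 1 higher by limma with a pseudocount of 0.1. Without FLAG replicate 1 and IgG replicate 2 it was 22 and 1. Without those 2, IgG replicate 1 and IgG IL-17 replicate 1 it was 981 and 256, where the lone IgG medium library is taken to be as variable as the rest. Leaving out 1 library gave 0 to 9 higher and 0 to 1 lower. For the change with IL-17 (0 and 0), DESeq2 gave 12 and 96, and leaving out 1 library 0 to 1 and 0 to 2.

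Deviations of same-numbered FLAG and IgG libraries correlated at r = 0.058, -0.11 and 0.28 in medium and at 0.16, -0.073 and 0.35 with IL-17. Pairs with different numbers ran from -0.36 to 0.31 in medium and from -0.41 to 0.32 with IL-17. The numbers were not taken to pair the libraries. A replicate block gave 1 and 3 for the enrichment and 2 and 1 for the change.

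Fully separated features (1171 above, 180 below) numbered 8028 and 654 without FLAG replicate 1 and IgG replicate 2, 689 above on TPM, and 1394 to 5975 and 301 to 1234 without 1 library. Features seen with FLAG only (364) or IgG only (4) numbered 5198 and 31 without those 2 libraries, 412 to 4048 and 9 to 118 without 1 library, and 18 for IgG at equal depth. The gap between level classes (0.72) was 0.47 with the filter of 50 counts, 5.11 and 6.20 without the 2 or 4 libraries, 0.20 and -0.071 by limma with the smaller and larger pseudocount, and -0.35 to 6.45 without 1 library. No named feature changed sign under any alternative that kept it. The features were chosen for full separation and a small p in these same libraries, so a kept sign was nearly fixed by the choice. For that reason neither the signs nor the following tallies test the features anew. An adjusted p under 0.05 was reached by ENSG00000207389.1 in 7 of 25 alternatives, by ENSG00000077063.11 in 3 of 25, by ENSG00000267303.1 in 3 of 24 and by ENSG00000270882.2 in 2 of 25. The fits without the transfected gene and without short RNA classes were not run.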
